A study of Mus musculus with 15 samples.

Results

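The natural killer (NK) receptor complex of mouse chromosome 6 was read here as the HindIII sites between 128.3 and 131 Mb of the mm9 genome, a stretch of 2.7 Mb that begins 12.9 Mb and ends 15.6 Mb from the bait site at Pparg. It held 874 of the 47607 HindIII sites of chromosome 6 and of the 823355 sites of the genome. It was set against its 2 flanks of the same length, the flank between it and the bait (125.6 to 128.3 Mb, 818 sites) and the flank beyond it (131 to 133.7 Mb, 867 sites), called the near and the far flank. The sites are defined by position, and the stretch was chosen with earlier results of these data known.

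The assay was 4C-seq, a form of chromosome conformation capture that starts from 1 site and counts the ligation of distant restriction sites to that bait. It reports which sites lay close to the bait in the fixed nuclei. The baits were at Pparg, whose product is the main transcription factor of adipocytes, and, for reference, at Ifng on chromosome 10 and Lpin1 on chromosome 12. Each bait was read with 1 library in a B lymphocyte cell line that the labels do not name, and with 2 libraries at each of 4 times in 3T3-L1, a fibroblast-like mouse cell line that turns into adipocytes. The times were day 0 (preadipocytes, 2 days after confluence), day 1 and day 2 (intermediate stages) and day 6 (mature adipocytes). Differentiation was started on day 0 by insulin, 3-isobutyl-1-methylxanthine and dexamethasone in serum. On day 2 the medium was changed to insulin and serum, and afterwards to serum alone. No expression was measured, so the identity of the cells rests on the labels. The numbers of the 3T3-L1 replicates stand only in the names of the deposited tables, and nothing says that they came from separate cultures, so each p-value measures the spread between libraries. Outside 10 kb on each side of the bait, 42094 to 2041336 reads were left per Pparg library, 110369 to 802403 per Ifng library and 717737 to 2536087 per Lpin1 library. On every day, replicate 1 of the Pparg bait was far deeper than replicate 2, for example 2006468 against 110339 reads on day 1.

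The complex encodes lectin-like receptors with which NK cells, and some T cells, sense the state of other cells. Klra genes encode the Ly49 receptors for MHC class I molecules, and the number of Klra genes differs between mouse strains. Klrc gene products (NKG2) pair with that of Klrd1 (CD94), and Klrk1 encodes the activating receptor NKG2D. Klrb1 family genes encode NKR-P1 receptors, some of whose ligands are products of the Clec2 genes that lie among them. Cd69 encodes an early marker of lymphocyte activation, and Clec7a and Clec9a encode receptors of myeloid cells.

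In the RefSeq annotation of GRCm38.p6, a later build than mm9, 45 genes of these families stand in 1 row on chromosome 6, of which 40 are protein-coding. They are 14 Klra, 6 Klrb, 3 Klrc and 6 other Klr genes (Klrd1, Klre1, Klrh1, Klri1, Klri2 and Klrk1), 8 Clec2 genes, Cd69, and 7 neighbouring lectin genes from Clec12a to Olr1. The order begins on the bait side with the Klrb and Clec2 genes, goes on with Cd69, the neighbouring lectins, Klre1, Klrd1, Klrk1, Klrc3, Klrc2, Klrc1 and the Klri genes, and ends with the Klra genes. No annotation of mm9 was used, so no gene is assigned to a window. Promoters, 250 bases before to 50 after a start, were listed for 35 of the 45 genes, 42 in all. The HindIII motif AAGCTT, which reads the same on both strands, occurred in 2 of the 42, those of Clec9a and Olr1, or 4.76%, against 7.45% of 32851 promoters in the RefSeq table.

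Some copies within the families are alike in their promoters. Of 595 gene pairs, 1 had promoters at least 90% identical. It was Klrc3 and Klrc2, with 296 identical bases, 3 mismatches and 2 gap positions in the alignment (98.3%). The next pairs were Klra4 and Klra8 at 86.0% and Klra9 and Klra3 at 85.0%, against a median of 50.3% over all pairs. The closest pair is shown to give the likeness of neighbouring copies in the complex; neither promoter holds a HindIII motif, and sequence at the counted sites was not compared. Both come from RefSeq, GRCm38.p6, minus strand, at chr6:129643239-129643538 for Klrc3 and chr6:129660507-129660806 for Klrc2. Capitals mark every base that differs in the alignment, a base opposite a gap included.
Klrc3: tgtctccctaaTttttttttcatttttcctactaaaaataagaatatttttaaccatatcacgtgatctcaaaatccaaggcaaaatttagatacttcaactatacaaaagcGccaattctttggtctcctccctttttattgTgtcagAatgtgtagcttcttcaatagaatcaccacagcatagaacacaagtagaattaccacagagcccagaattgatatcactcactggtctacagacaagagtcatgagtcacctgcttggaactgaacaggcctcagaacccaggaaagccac
Klrc2: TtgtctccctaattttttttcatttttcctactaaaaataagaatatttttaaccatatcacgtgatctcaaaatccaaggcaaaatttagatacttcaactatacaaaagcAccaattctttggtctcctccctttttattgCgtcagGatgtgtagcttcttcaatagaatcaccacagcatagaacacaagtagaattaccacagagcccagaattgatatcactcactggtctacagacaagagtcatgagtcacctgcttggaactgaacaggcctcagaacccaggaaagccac

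A site was called captured in a library when it had at least 1 read. Of the 874 sites of the complex, 322 (36.8%) had no read in any of the 27 libraries, compared with 8.80% of the near flank and 52.0% of the far flank. Among 54 stretches of 2.7 Mb on chromosome 6 the median was 24.5%, and 18 stretches had a larger share than the complex. Over 945 such stretches of all autosomes and X the median was 60.0%. Of the 349 sites of the complex without a read from Pparg, 27 had a read from another bait, so the share without any read mostly follows the Pparg libraries. The captured shares below count all sites, those without any read included. Whether those sites can be captured at all was not tested.

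From Pparg, the complex was contacted less than the near flank and more than the far flank in every library. In B cells, 180 of its 874 sites were captured, or 20.6% (Wilson 95% interval 18.0 to 23.4%, counting error only), against 53.3% of the near and 14.9% of the far flank. In 3T3-L1, the captured share was 18.0% ± 13.6 in the complex, 33.9% ± 18.4 in the near flank and 8.16% ± 6.77 in the far flank (SD, n = 8). The numbers of captured sites in the complex were 164 and 83 on day 0, 336 and 57 on day 1, 340 and 91 on day 2, and 152 and 39 on day 6, for replicates 1 and 2. The deeper library held more captured sites on each day, so levels were compared within libraries. Within 3T3-L1 libraries, the log2 ratio of the captured share in the complex to that in the near flank averaged -1.06 ± 0.40 (SD, n = 8) and was below 0 in 8 of 8 libraries. The ratio to the far flank averaged 1.28 ± 0.30 on the log2 scale (SD, n = 8), above 0 in 8 of 8. Both differed from 0 (two-sided exact sign-flip permutation test, adjusted p = 0.0141 for each over 9 tests, n = 8). Counting only sites captured in at least 1 of the 27 libraries, the ratios were -0.53 and 0.88 and both passed (adjusted p = 0.0352 and 0.0234, same exact test, n = 8). That selection was made with the same libraries, and 525 of the 552 sites kept in the complex had a read from Pparg. It shifts each ratio by the same amount in every library, so it is no independent support. Against both flanks together the log2 ratio was -0.30 ± 0.32 (SD, n = 8, adjusted p = 0.0586, same exact test). Among the 54 stretches of chromosome 6, the complex ranked 26 by captured share in B cells and 26 in 3T3-L1. At the same distance on the other side of the bait, a stretch of 830 sites was captured at 34.1% in B cells and 26.4% ± 15.5 in 3T3-L1 (SD, n = 8), above the complex in all 9 libraries. That stretch was added after the data were seen and was not tested.

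**Figure D1:**
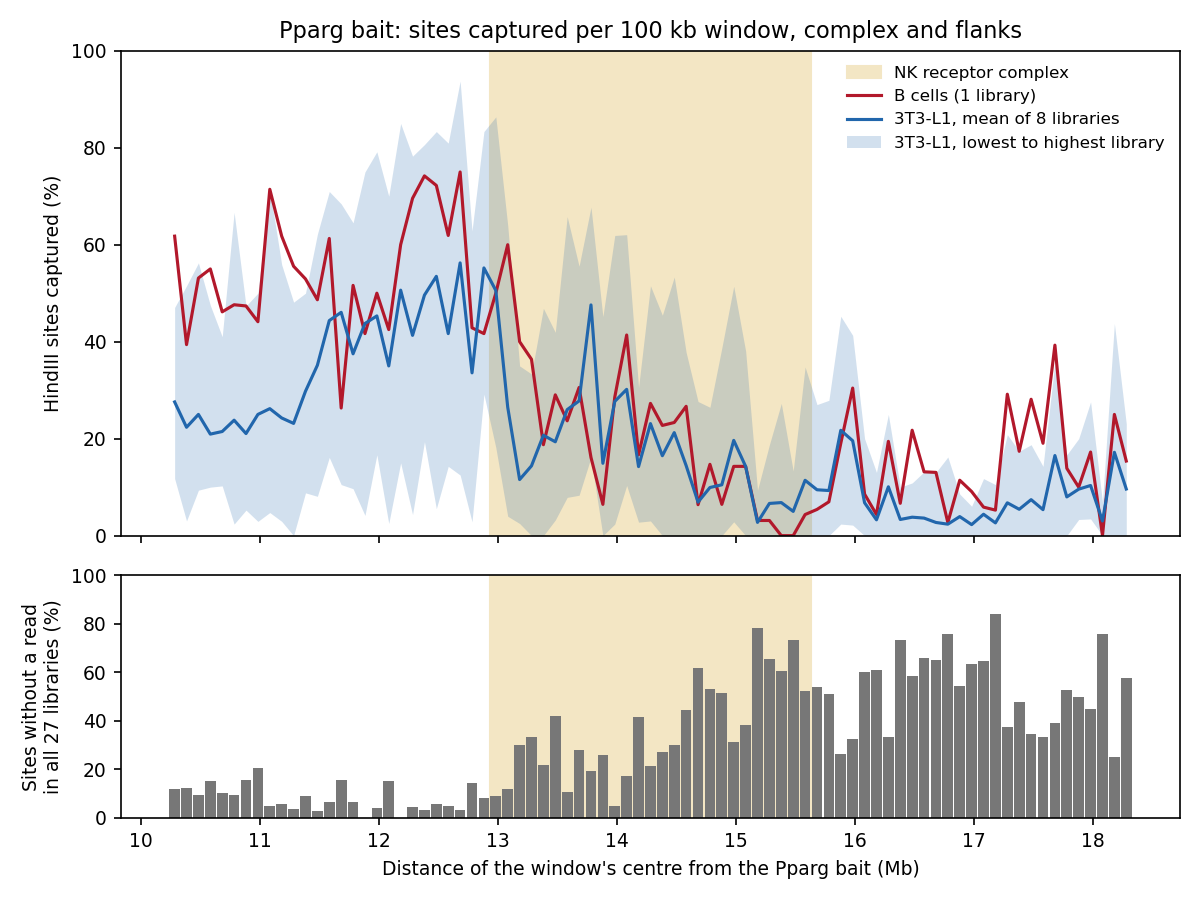
Share of HindIII sites captured from the Pparg bait in windows of 100 kb, by distance from the bait in Mb (upper panel, B cells in red, the mean and the lowest to highest of 8 3T3-L1 libraries in blue), and the share of sites without a read in all 27 libraries (lower panel, grey bars). The shaded complex lies on a falling slope, from 50.6% in its first window to 2.73% in its least captured one in 3T3-L1.

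The captured share also differed between parts of the complex. In 3 blocks of 0.9 Mb from the bait outward, the captured share in B cells was 32.6%, 21.6% and 6.64%, and in 3T3-L1 it was 25.8% ± 15.4, 18.3% ± 15.5 and 9.55% ± 9.90 (SD, n = 8). The outermost block was the lowest in 9 of 9 Pparg libraries. It was also the lowest in 9 of 9 Ifng and 6 of 9 Lpin1 libraries, and 56.5% of its sites had no read in any library, against 23.6% and 32.1% in the other blocks. The part of the uncaptured sites in this order was not tested.

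The 3 most captured windows of the 27 in 3T3-L1 were chr6:128300001-128400000 at 50.6% ± 23.1 of 22 sites, chr6:129100001-129200000 at 47.6% ± 18.8 of 31 sites and chr6:129400001-129500000 at 30.2% ± 20.2 of 29 sites (SD, n = 8). In B cells these windows had 50%, 16.1% and 41.4%. The 3 least captured were those that begin at 130.5, 130.8 and 130.6 Mb, at 2.73% ± 3.52, 5.0% ± 4.36 and 6.64% ± 7.36 (SD, n = 8), and in B cells at 3.13%, 0% and 3.13%. In these 3 windows, 25 of 32, 22 of 30 and 21 of 32 sites had no read in any library. The window at 129.1 Mb stood above both neighbours in 3T3-L1: the window before it had 27.8% ± 16.5 and the one after it 14.9% ± 15.6 (SD, n = 8).

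Few single sites were found again and again. The sites at chr6:129123642-129123647 and chr6:129008659-129008664 were captured in 9 of 9 Pparg libraries. The first had 3 reads in B cells, 33 and 3 on day 0, 238 and 1 on day 1, 148 and 119 on day 2, and 231 and 3 on day 6. The second had 11 reads in B cells and 1 to 49 reads in 3T3-L1 libraries. Those at chr6:129164759-129164764, chr6:128843559-128843564 and chr6:129662935-129662940 were captured in 8 of 9. The first and the third of all 5 lie in the window at 129.1 Mb. A site was captured in at least 6 Pparg libraries for 34 of 874 sites of the complex (3.89%), against 121 of 818 in the near flank (14.8%) and 5 of 867 in the far flank (0.577%). Of the sites captured by day 1 replicate 2, 71.9% were also captured by replicate 1 of that day, and these were 12.2% of the sites of replicate 1. Replicate 1 of day 1 captured 38.4% of all sites of the complex. The smallest such overlap was on day 6, with 14 shared sites, 35.9% of those of replicate 2 and 9.21% of those of replicate 1. In the near and far flank, the share of replicate 2 sites also in replicate 1 was 70.7% and 33.3% on day 1. On day 6 it was 43.6% and 9.09%.

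Reads were uneven between sites. Of 152 combinations of a window and a Pparg library with at least 10 reads, 53 (34.9%) had over 50% of their reads on 1 site. In the window at 129.6 Mb, for example, 572 of 603 reads of day 6 replicate 1 lay on chr6:129662935-129662940. Such counts cannot be told apart from repeated amplification of few ligations, because no molecular identifiers were reported.

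**Figure D2:**
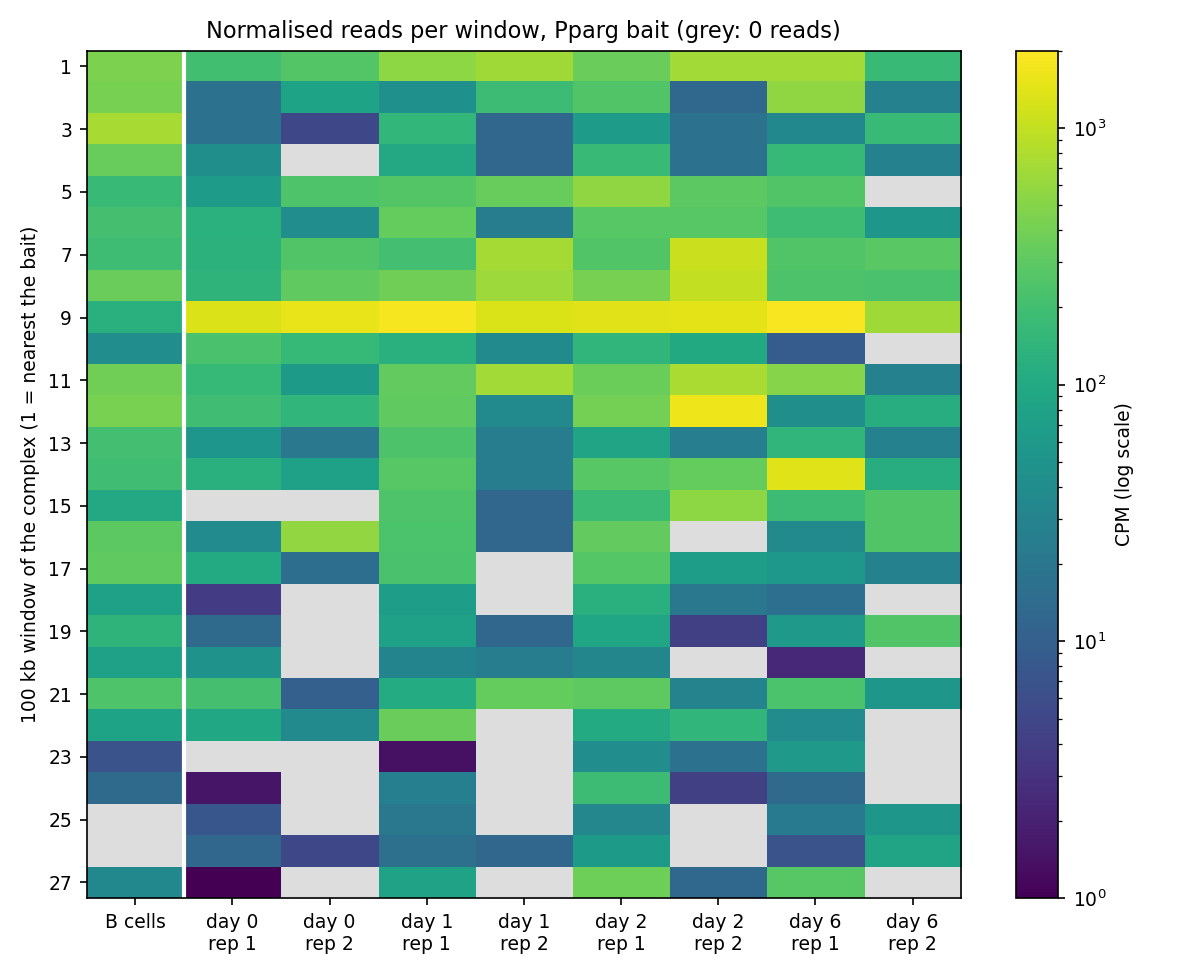
Reads of the Pparg bait in each of the 27 windows of the complex (rows, window 1 nearest the bait) and 9 libraries (columns, B cells first), as scaled CPM on a log colour scale, with windows at 0 reads in grey. The window at 129.1 Mb (row 9) is bright in the 3T3-L1 columns and dim in B cells, and the one at 129.7 Mb (row 15) is grey in both day 0 libraries.

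Over differentiation, reads in the whole complex were higher on day 2 than on day 0. Reads were summed over 55 tiles of 2.7 Mb of chromosome 6 and fitted together, and CPM below are these sums scaled by edgeR to a common library size. The complex had 7044 and 8127 CPM on day 2, against 3174 and 3880 CPM on day 0, so the groups did not overlap. Its log2 difference on day 2 was 1.11 ± 0.26 (SE), or 2.15-fold (edgeR quasi-likelihood test, Benjamini-Hochberg adjusted p = 0.00466 over 55 tiles, n = 2 each). Of all tiles, 7.27% passed in this comparison, and the complex had the smallest p of them. Without day 0 replicate 1, the deeper of the day 0 libraries, the log2 difference was 0.97 and did not pass (adjusted p = 0.129, edgeR). Fitted on captured sites rather than reads, the day 2 log2 difference was 0.55 and passed (adjusted p = 0.0172, edgeR), the smallest of the 3 days on that measure.

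On day 1 the complex had 6961 and 5016 CPM, again above both day 0 libraries. The log2 difference of 0.77 ± 0.26 (SE) on day 1 did not pass (edgeR, adjusted p = 0.0649, 5.45% of tiles called), and it passed with captured sites (0.81, adjusted p = 0.000153, edgeR). On reads it also passed in 4 of the 9 fits that left out 1 library, those without day 1 replicate 2 (0.98, adjusted p = 0.00789), day 2 replicate 2 (adjusted p = 0.0335), day 6 replicate 1 (adjusted p = 0.0141) or day 6 replicate 2 (adjusted p = 0.00758, all edgeR). On day 6 the libraries lay apart, at 6387 and 3109 CPM, and overlapped those of day 0. The log2 difference on day 6 was 0.45 ± 0.26 (SE, edgeR, adjusted p = 0.222, 16.4% of tiles called). It was -0.18 without day 6 replicate 1, whereas without day 6 replicate 2 it was 0.79 and passed (adjusted p = 0.0223, edgeR). With captured sites it passed at 0.60 (adjusted p = 0.0141, edgeR). The share of all tiles that passed with captured sites is not given here. The passes of the complex on that measure, on days 1, 2 and 6, are therefore not shown to be particular to it.

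The flanks had their own values in the same fits. The far flank had log2 differences of 0.64 ± 0.46 on day 1, 0.92 ± 0.46 on day 2 and 1.10 ± 0.46 on day 6 (SE), none of which passed (edgeR, adjusted p = 0.492, 0.185 and 0.104). The near flank had -0.02 ± 0.21, -0.02 ± 0.21 and 0.15 ± 0.21 (SE, edgeR, adjusted p = 0.922, 0.958 and 0.638). The 3 day comparisons share the day 0 libraries.

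**Figure D3:**
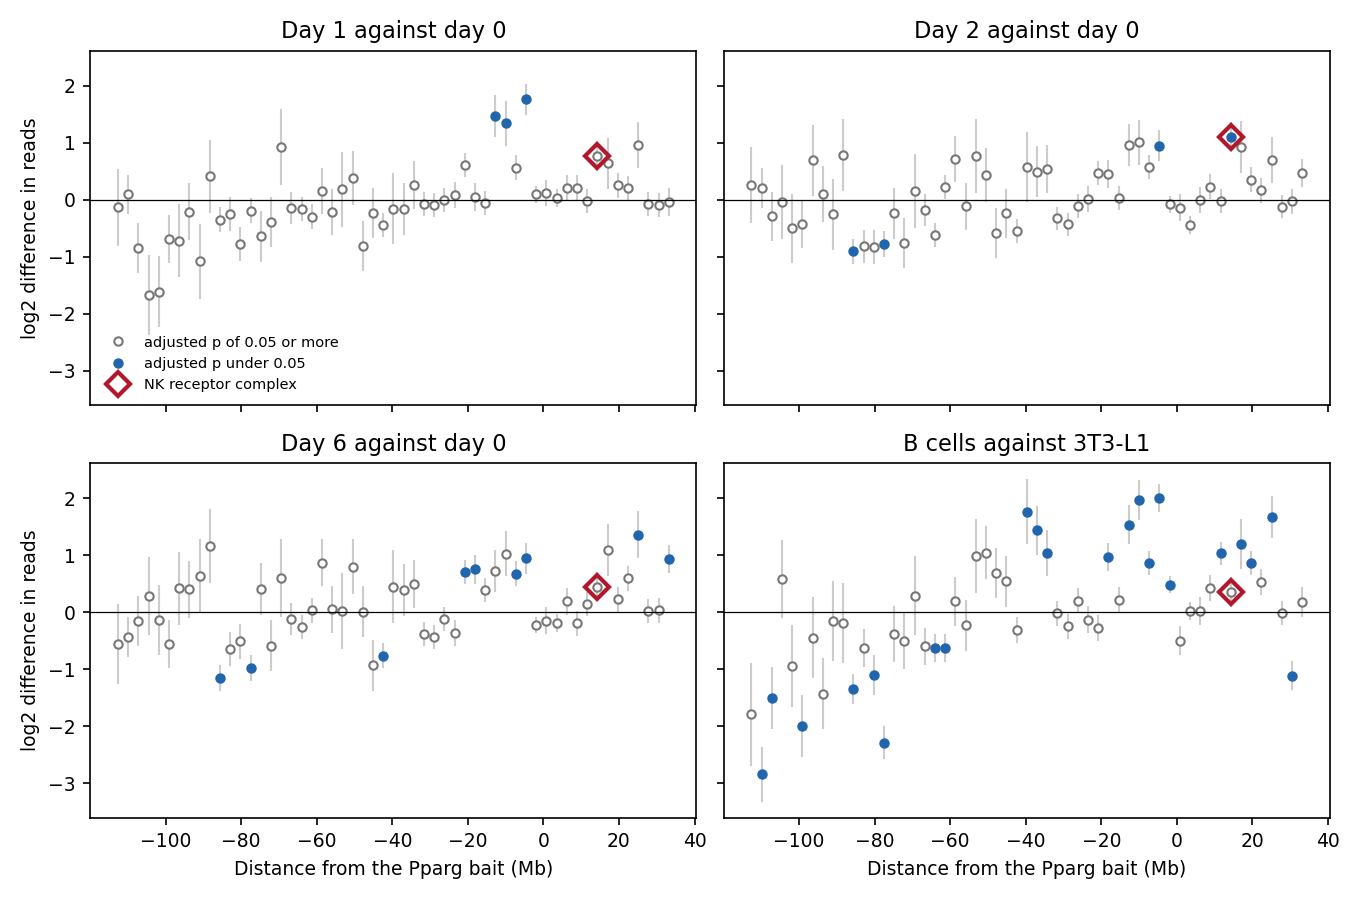
Log2 difference in reads of 55 tiles of 2.7 Mb along chromosome 6 (points, with SE as grey bars) by distance from the Pparg bait in Mb, 1 panel per comparison, with blue points at an adjusted p under 0.05 and the complex ringed by a red diamond. The complex is blue on day 2 at 1.11 and white in the other panels, at 0.77, 0.45 and 0.36.

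Complex and flanks were also compared within each library, where they share its depth. The log2 ratio of the captured share in the complex to that in both flanks was -0.55 and -0.85 on day 0, 0.13 and -0.36 on day 1, -0.01 and -0.45 on day 2, and -0.09 and -0.24 on day 6. Every later library thus lay above both day 0 libraries. The mean difference from day 0 was 0.59 on day 1, 0.47 on day 2 and 0.53 on day 6. With 2 libraries against 2, each had p = 0.333 (two-sided exact permutation test), the smallest this design allows, and an adjusted p = 0.6 over 9 tests, so a change of the complex relative to its flanks was not shown. With every library thinned to the shallowest of the bait the differences were 0.70, 0.86 and 0.58. With reads per site in place of captured sites they were 0.70, 0.99 and 0.06, the last with overlapping groups.

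Single windows of the complex gave few calls, and a window without a call is not shown to be unchanged at this depth. In a fit of the 1376 tested windows of chromosome 6, no window passed on day 1 (edgeR, 0% called; 52 windows had p under 0.05 before adjustment, and DESeq2 called 6), 0.0727% passed on day 2 and 0.291% on day 6. The window at 129.7 Mb, chr6:129700001-129800000, was the only one of the complex to pass on any day in this fit. Its reads numbered 343 and 1 at day 1, 244 and 129 at day 2 and 79 and 9 at day 6, and 0 in both day 0 libraries. Its mean on day 2 was at least 40.4-fold higher than a floor of 3 reads per day 0 library (adjusted p = 0.0397, edgeR). On day 6 it was at least 24.4-fold higher than that floor (adjusted p = 0.0294, edgeR), and on day 1 the window did not pass (adjusted p = 0.0915, edgeR), though it did without day 1 replicate 2 or day 6 replicate 1 (adjusted p = 0.0272 and 0.0460, edgeR). On day 2 all 129 reads of replicate 2 lay on chr6:129786151-129786156, and on day 6 69 of the 79 reads of replicate 1 lay on chr6:129765034-129765039. With at most 10 reads counted per site, neither call was left (adjusted p = 1.00 on day 2 and 0.300 on day 6, edgeR). The day 2 call was also lost with no filter, without either day 0 library or without either day 2 library, and the day 6 call with the replicate block (adjusted p = 0.0621, edgeR), without either day 0 library, either day 6 library or day 2 replicate 2 (adjusted p from 0.0519 to 0.999 over all of these, edgeR). In the fits with a library left out that lost the call, the fitted log2 difference, which depends on the prior count, was 9.77 to 11.04 on day 2 and 9.72 to 10.25 on day 6, against 10.71 and 9.97 with all libraries.

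As a list, the windows of the complex lay mostly above day 0. On day 1, 25 of 27 had a positive fitted log2 difference, with a median of 1.25, against 48.5% of all tested windows and a median of -0.07. On day 2 there were 24 of 27 with a median of 1.68, against 55.2% and 0.14, and on day 6 19 of 27 with a median of 1.31, against 49.6% and 0. With the 2 windows at 0 on day 0 placed at their bound, or left out where both days were under the floor, the medians were 1.22, 1.68 and 1.31. These counts rest on the deep replicate 1 libraries. Without that of day 1, 10 of 27 were higher on day 1 (all windows 32.0%), without that of day 2, 16 of 26 on day 2 (42.6%), and without that of day 6, 8 of 26 on day 6 (32.6%). The windows with the smallest p among the lower ones did not pass, at 129.8 Mb on days 1 and 2 with log2 differences of -1.23 and -0.88 and at 129.2 Mb on day 6 with -4.73 (adjusted p = 0.987, 0.984 and 0.640, edgeR).

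No difference between B cells and 3T3-L1 was detected over the complex as a whole. B cells had 1 library, so every p below for B cells borrows the spread of the 3T3-L1 libraries and holds none of B cells. The complex had 6758 CPM in B cells and 5462 ± 1934 CPM in 3T3-L1 (SD, n = 8), which is 0.36 ± 0.26 on the log2 scale (SE, adjusted p = 0.302 by edgeR), in a comparison in which 40% of tiles passed. Both flanks were among those that passed in this fit of 1 library against 8, the near flank with 1.04 ± 0.20 (adjusted p = 6.82e-05, edgeR) and the far flank with 1.20 ± 0.44 (adjusted p = 0.0264, edgeR). The log2 ratio of the complex to both flanks was -0.70 in B cells and -0.30 ± 0.32 in 3T3-L1 (SD, n = 8). The B cell value lay within the 3T3-L1 range (exact permutation test, p = 0.444, where 0.222 is the smallest p for 1 against 8). To the near flank alone the B cell ratio was -1.37, within the 3T3-L1 range of -1.70 to -0.42. To the far flank alone it was 0.47, below the 3T3-L1 range of 0.97 to 1.81. By reads per site the ratio to the far flank was 0.63, against 0.87 in the lowest 3T3-L1 library. The B cell ratios to single flanks were not tested.

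Within the complex, the window at 129.1 Mb was lower in B cells. It had 18 reads on 5 of 31 sites in B cells, and in 3T3-L1 the reads numbered 1721 and 300 at day 0, 2544 and 106 at day 1, 1988 and 344 at day 2 and 814 and 24 at day 6. After scaling it held 125 CPM in B cells and 1428 ± 367 CPM in 3T3-L1 (SD, n = 8), and the B cell library lay below all 8. The log2 difference was -3.51 ± 0.83 (SE, edgeR, adjusted p = 0.00519), in a comparison in which 0.872% of 1376 windows passed and the B cell spread could not be measured. By captured sites the B cell value of 16.1% was no lower than the lowest 3T3-L1 library, day 6 replicate 2, which also had 5 of 31. The call was not kept with at most 10 reads counted per site (-2.07, adjusted p = 0.129) or with captured sites in place of reads (-1.47, adjusted p = 0.0774, both edgeR). Against day 0 this window had log2 differences of 0.10 ± 0.57, 0.00 ± 0.57 and -0.15 ± 0.57 on days 1, 2 and 6 (SE, edgeR, adjusted p = 0.987, 1.00 and 0.977).

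Near the bait end, the window at 128.5 Mb had the smallest p among the higher ones in B cells. It had 16 of 40 sites captured in B cells (40%) and 11.6% ± 10.9 in 3T3-L1 (SD, n = 8), and 737 CPM in B cells against 59.4 ± 66.0 CPM in 3T3-L1. The log2 difference of 4.01 ± 1.37 (SE) did not pass (edgeR, adjusted p = 0.150) and did with captured sites (1.95, adjusted p = 0.0434, edgeR). On captured sites, 28 of the 552 tested windows of chromosome 6 passed. On reads, 19 of 27 windows had a positive fitted difference in B cells, with a median of 0.47, against 51.0% of all windows and a median of 0.06. The fit averages the days on the log scale, so a day at 0 reads raises the difference. At 129.7 Mb, with 0 reads on day 0, it was 1.33, though B cells had 97.3 CPM against 177 ± 184 CPM in 3T3-L1 (SD, n = 8). By captured share, B cells lay above the 3T3-L1 mean in 14 of 27 windows.

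Seen from baits on other chromosomes, the complex was captured at 0.800 to 1.00 times the average share of sites outside the bait chromosome, by bait and cell type. Single 3T3-L1 libraries ranged from 0.694 to 1.12 times from Ifng and from 0.391 to 1.28 times from Lpin1. From Ifng, 18 of its sites were captured in B cells, and in 3T3-L1 41 and 46 on day 0, 24 and 32 on day 1, 48 and 29 on day 2, and 15 and 20 on day 6, or 3.65% ± 1.39 (SD, n = 8). From Lpin1 the numbers were 23 in B cells, 16 and 16 on day 0, 19 and 3 on day 1, 37 and 12 on day 2, and 6 and 4 on day 6, or 1.62% ± 1.26 (SD, n = 8). Relative to all sites outside the bait chromosome of the same library, the share captured in the complex was a multiple of 1.00 in B cells and 0.826 ± 0.136 in 3T3-L1 from Ifng, and 0.800 in B cells and 0.891 ± 0.278 in 3T3-L1 from Lpin1 (SD, n = 8). In 3T3-L1 the complex had the lowest captured share of the 54 stretches of chromosome 6 from Ifng, and ranked 37 from Lpin1. In B cells the ranks were 34 and 36.

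The order of complex and near flank seen from Pparg was found from these baits as well, although neither flank is nearer to them. The log2 ratio to the near flank was -1.23 ± 0.23 from Ifng and -0.87 ± 0.74 from Lpin1 (SD, n = 8), below 0 in 8 of 8 libraries of each (exact sign-flip permutation test, adjusted p = 0.0141 for each). The ratio to the far flank was -0.10 ± 0.52 from Ifng and 0.60 ± 0.84 from Lpin1 (SD, n = 8), and neither passed (same exact test, adjusted p = 0.609 and 0.110). The Lpin1 difference from the near flank did not pass when only sites captured in at least 1 of the 27 libraries were counted (-0.34, adjusted p = 0.291, exact test). The Ifng difference did not pass against only the part of the flank that adjoins the complex (-0.45, adjusted p = 0.141, exact test). In the lone B cell library of each bait, the log2 ratio to the near flank was -0.97 from Ifng and 0.11 from Lpin1. The Lpin1 library of B cells thus had the reverse order.

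**Figure D4:**
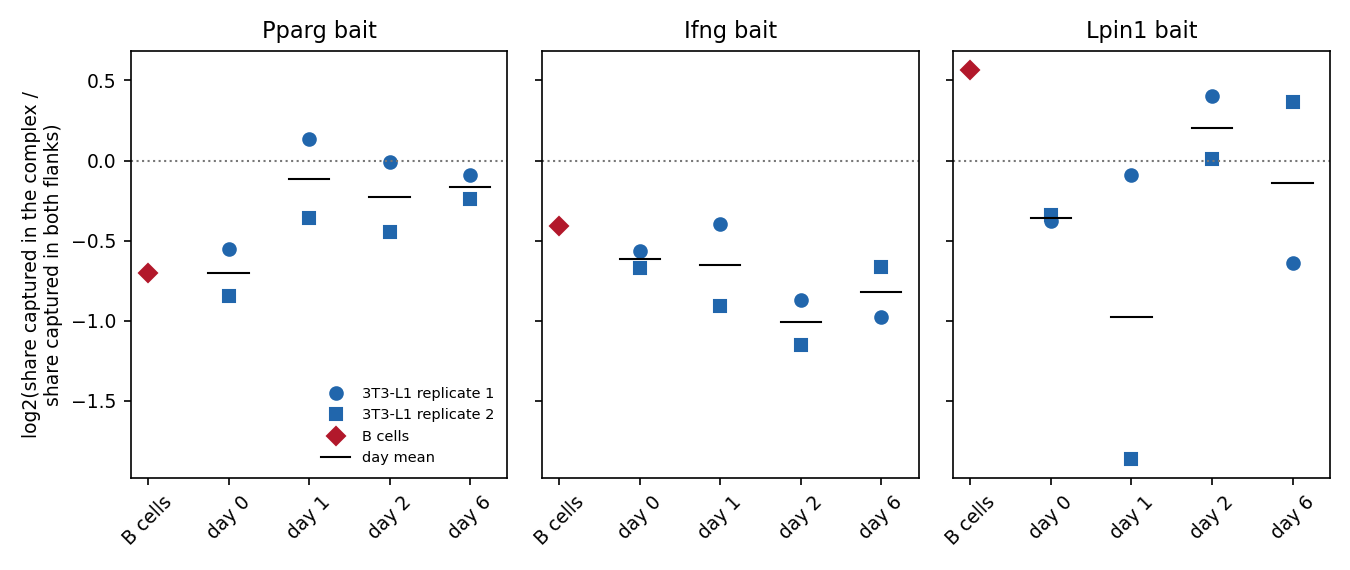
Log2 ratio of the captured share in the complex to that in both flanks for each library, 1 panel per bait, with B cells as red diamonds, 3T3-L1 replicates 1 and 2 as blue circles and squares, and the mean of each day as a black bar. From Pparg all 6 libraries of days 1, 2 and 6 lie above both of day 0, and B cells lie among the 3T3-L1 libraries.

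Over days, the ratio to both flanks from Ifng was lower on day 2 than on day 0 by a mean difference of -0.39 and from Lpin1 it was higher by 0.56, both without overlap and each with p = 0.333 (exact permutation test, the smallest possible). On day 1 and day 6 the groups overlapped for both baits. In B cells the ratio was -0.41 from Ifng, against -0.78 ± 0.24 in 3T3-L1 (SD, n = 8), and 0.56 from Lpin1, against -0.32 ± 0.72 in 3T3-L1 (SD, n = 8), above all 8 libraries for Lpin1 (exact permutation test, p = 0.222, the smallest possible, adjusted p = 0.444 over 3 baits). The Lpin1 values rest on 3 to 37 captured sites of the complex per 3T3-L1 library.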

How the data were processed

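The authors deposited 27 tables of counts, whole numbers of reads at each HindIII site of mm9, with no normalisation, per the file headers and values. Per the labels' protocols, formaldehyde (2%, 10 min) fixed the chromatin, and HindIII and later DpnII cut it before ligation. The submitters' processing notes name Bowtie and mm9; filters, duplicate removal and the handling of repeats are not given in the sources used here. The complex, its flanks and the gene lists were chosen with earlier results of these data known.

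The bait was the site with the most reads, and no site up to 10 kb from it was used. Depth per library is given with the results; intervals are Wilson intervals at 95% and cover counting error only. Windows of 100 kb and tiles of 2.7 Mb of chromosome 6 were fitted in R 4.3.3 by edgeR 4.0.16 (robust quasi-likelihood test, TMM scaling, filterByExpr, 5 groups), with Benjamini-Hochberg adjustment at 0.05. The lone B cell library is assumed to vary like the 3T3-L1 libraries. Captured shares were compared within libraries by exact permutation tests in Python 3.11.15. The edgeR step was tested on simulated data with known changes. It recovered few of the changed windows and more of the changed tiles, with a false call among the tiles. Windows named are the 3 most and 3 least captured, those that passed and the smallest p in each direction, and sites are the 5 most recurrent and those with most reads of a named window. Neighbouring windows, the mirrored stretch and the blocks of 0.9 Mb were added after their values were seen. Alternatives were DESeq2 1.42.0, no filter, a replicate block, captured sites, windows of 200 kb, reads capped at 10 per site, at least 2 reads per captured site, sites captured in some library, thinning, reads per site, the adjoining part of the flanks, and each library left out. RefSeq tables of GRCm38.p6 served for gene names, order and promoters only.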

Additional observations from a re-analysis of the deposited data

Results flagged for a closer look

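From Lpin1, the library of day 1 replicate 2 had a log2 ratio of the captured share in the complex to both flanks of -1.86, the lowest of 8 3T3-L1 libraries and far below the next. It rests on 3 captured sites with 77 reads. In 9 groups of libraries examined this way, chance sets about 1 in 20 apart.

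The day 2 change of that ratio against day 0 differed in sign between Ifng and the other baits. The change from Pparg minus that from Lpin1 was -0.09, and both were positive. The change from Pparg exceeded that from Ifng by 0.86 on the log2 scale, and the change from Ifng minus that from Lpin1 was -0.95. In both pairs the day 2 libraries of each bait lay wholly on opposite sides of its day 0 libraries. A two-sided exact permutation of the days within each bait gave p = 0.0556 for each, the smallest it can give, and an adjusted p = 0.25 over 9 such differences, so neither difference passed.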

How the results depend on the processing

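For the 13 results whose test could pass, 142 of 163 recomputed values kept their direction and side of the threshold. For the 12 differences of ratios whose design cannot reach 0.05 (days and B cells), 102 of 108 kept their direction. For the 8 counts of windows, 66 of 116 stayed within 1.5 times the count reported. By DESeq2, the windows of chromosome 6 that passed numbered 6 on day 1, 6 on day 2, 30 on day 6 and 36 in B cells, and within the complex 1 passed on day 1. On day 2, 0 windows passed on chromosome 6 and in the complex with no filter, with reads capped at 10 per site, with captured sites and with windows of 200 kb. On day 6, 0 passed in both with captured sites, windows of 200 kb or the replicate block. In the complex, 0 passed on day 6 with reads capped at 10 per site. The fit with captured sites tested only 8 of the 27 windows of the complex, and 552 windows of chromosome 6. It gave no value for the window of the complex that passed on reads on days 2 and 6. The counts of 0 in the complex with captured sites therefore do not recheck those calls. In B cells, capping left 0 windows in the complex. Chromosome 6 had 28 of 552 tested windows with captured sites and 19 of 723 with windows of 200 kb. With captured sites the complex as 1 tile passed on day 1 at 0.81 and on day 6 at 0.60 (log2), with the share of all tiles that passed not given.

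For the ratios to the flanks (log2, 3T3-L1), counting sites with at least 2 reads gave -0.35 from Pparg to both flanks, which passed, and -0.46 from Lpin1 to the near flank, which did not. From Lpin1 the ratio to the near flank also did not pass with sites captured in some library (-0.34) or reads per site (-1.13), and the far flank passed after thinning (0.74). With only the adjoining part of each flank, Pparg to both flanks passed at -0.50, Ifng did not pass to the near flank (-0.45) or to both (-0.16), and Ifng to the far flank turned to 0.14. The Lpin1 difference of day 6 from day 0 turned to -0.083 after thinning and to -1.12 with reads per site. The cause of these changes was not tested.

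Leaving out each library in turn gave 0 to 1 windows of the complex on day 1, 0 to 1 on day 2 and 0 to 1 on day 6, and 0 to 3, 0 to 1, 0 to 4 and, for B cells, 7 to 28 windows of chromosome 6. The complex as 1 tile ranged from 0.51 to 0.98 on day 1, from 0.96 to 1.21 on day 2, and from -0.18 to 0.79 on day 6. In 3T3-L1 the ratio to both flanks from Pparg ranged from -0.36 to -0.22, passing without day 1 replicate 1. The ratio to the far flank ranged from 0.40 to 0.83 from Lpin1, passing without day 1 replicate 2, and from -0.20 to 0.013 from Ifng, without day 2 replicate 2. Differences of the ratio from day 0 ranged from -0.29 to 0.22 for Ifng on day 1, from -1.50 to 0.27 for Lpin1 on day 1 and from -0.28 to 0.72 for Lpin1 on day 6.

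Deviations of same-numbered Pparg libraries correlated at 0.022 to 0.068 between days, so the numbers were not taken as pairs. With the replicate block the complex as 1 tile had 0.76, 1.06 and 0.35 on days 1, 2 and 6 and kept its side of the threshold, and the block changed no other call than those above. Depth limits the values that rest on few captured sites of the complex, 39 to 91 in Pparg replicate 2 libraries, 15 to 48 in Ifng and 3 to 37 in Lpin1 libraries of 3T3-L1.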
